A study of Homo sapiens with 16 samples.

Results

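Interferon-stimulated genes were followed through 16 arrays of 2 human colon cancer cell lines treated with inhibitors of DNA methylation, histone deacetylation and poly(ADP-ribose) polymerases. The set consisted of 47 named genes, of which 46 had at least 1 probe set of their own, a probe set being the group of short probes that reads 1 transcript. STAT2 was not analysed here. The 46 genes were read by 85 of the 54613 probe sets used and are 46 of the 19775 genes with a probe set of their own. In 24 genes with several probe sets, the one with the highest mean signal over the 16 arrays stood for the gene.

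Cells infected by a virus make interferons, which bind receptors on the cell surface and act through receptor-bound kinases on transcription factors, IRF9 among them. IRF9 helps to bind a short DNA element, the interferon-stimulated response element (ISRE), in the promoters of many genes whose products sense foreign RNA or DNA, block viral entry, degrade RNA or tag proteins with the ubiquitin-like protein ISG15. The same genes are known to respond when inhibitors of DNA methylation let cancer cells transcribe endogenous retroviruses, and several of them are silenced by methylation in tumour cell lines.

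HCT116 and RKO cells were each treated for 3 days with all 3 of the drugs PJ-34, 5-aza-dC and TSA, with each pair of them or with 1 of them, or were left without a drug (control). Affymetrix U133 Plus 2.0 arrays read the RNA, with 1 array for each condition. 5-aza-dC, which traps DNA methyltransferases on DNA, was given at 0.5 µM and TSA, an inhibitor of histone deacetylases, at 150 nM. PJ-34, an inhibitor of poly(ADP-ribose) polymerases, was given at 3 µM in HCT116, while the sources name both 2 µM and 3 µM for RKO. The labels name no other agent. The lines themselves differ in genetic background, and the paper lists a further culture medium for HCT116. It also mentions solvent controls, while the labels say control only. All arrays of a line came from that 1 line, and every condition was a single array. The effect of a drug was therefore the difference between the 4 arrays of a line with it and the 4 without it, tested with limma on log2 signals and adjusted over all probe sets tested, with an adjusted p of 0.05 as the threshold. Probe sets had to reach a signal of 100 on 4 arrays to be tested, and signals under 50 were set to 50.

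The median signal was 160 to 210 on the HCT116 arrays and 151 to 201 on the RKO arrays. The epithelial markers EPCAM, KRT8, KRT18 and CDH1 summed to 132009 to 191653 in HCT116, where all 4 reached 100 on every array, and to 18795 to 20888 in RKO, where 3 did. Most of the RKO sum was KRT18 (14319 to 16263). CDH1 read 3.90 to 117 in RKO against 5297 to 10572 in HCT116, and KRT8 270 to 520 against 11939 to 35261. The 3 leukocyte markers read (PTPRC, CD3E and CD14) summed to 141 to 383 in HCT116 and to 66.7 to 351 in RKO, and none reached 100 on every array. The labels of 2 RKO arrays went against their signals. Cancer-testis genes are often kept silent by DNA methylation and switched on by 5-aza-dC. Of 11 such genes, 7, 7 and 8 stood at least 2-fold above the RKO control on the arrays labelled PJ-34/5-aza-dC/TSA, then 5-aza-dC/TSA, and 5-aza-dC alone. With the label PJ-34/5-aza-dC the count was 0, and with the label PJ-34 it was 10. In HCT116 it was 6 or 7 on the 4 arrays with 5-aza-dC and 1 or 2 on the 3 drug arrays without it. Not all of the 11 were silent there, as MAGEA6, MAGEB2 and MAGEA12 read 11260.5, 13829 and 1225 on the HCT116 control. The arrays were kept under their labels, and the RKO drug effects, the differences of drug effects between the lines and the counts between the lines are given with and without both of these arrays.

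Promoter sequences came from RefSeq (GRCh38.p14) for 37 of the 46 genes, as windows of 300 bases that run from 250 before to 50 after an annotated transcript start. Where a gene had several windows (11 of the 37), the one listed first was used. In 32 of the 37 the start lay within 50 bases of the outer end of the gene, and in 4 (DDX60, IFI16, IFI27 and ISG20) it lay more than 1000 bases inside it. The ISRE core, written GAAA, any 2 bases (NN) and GAAA and searched on both strands, occurred in 23 of the 37 windows (62.2%) and in 3.65% of the 27305 windows listed first for all genes. A GAS element, written TTCNNNGAA and its own reverse complement, occurred in 10 of 37 (27.0%) against 7.88% of all. The genes' windows held a median of 8 CpG dinucleotides, the bases that DNA methyltransferases modify, against 14 in those of all genes. An ISRE core that itself held a CpG was found in 12 of the 23 windows with a core (52.2%), against 108 of the 996 windows of all genes with a core (10.8%). The 12 were those of DDX60, EIF2AK2, EPSTI1, HERC5, IFI27, IFIT1, IFIT5, IFITM3, ISG15, LGALS3BP, MX1 and OAS3.

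The 250 bases before that transcript start are shown for the 3 genes that rose with 5-aza-dC in HCT116 and for LGALS3BP and IFI16, which differed most between the lines in each direction. Capitals mark ISRE cores on either strand that lie wholly within the 250 bases, overlapping ones being joined. The strand of the gene is printed 5′ to 3′. The windows are chr14:94110486-94110735 (plus strand), chr19:17405631-17405880 (minus strand), chr11:313790-314039 (plus strand), chr17:78979924-78980173 (minus strand) and chr1:159008741-159008990 (plus strand).
IFI27: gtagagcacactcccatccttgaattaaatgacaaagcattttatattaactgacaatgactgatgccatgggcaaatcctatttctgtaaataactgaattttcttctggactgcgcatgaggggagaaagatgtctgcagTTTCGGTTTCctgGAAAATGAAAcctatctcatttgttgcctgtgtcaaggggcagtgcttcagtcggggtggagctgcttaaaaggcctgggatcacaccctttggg
BST2: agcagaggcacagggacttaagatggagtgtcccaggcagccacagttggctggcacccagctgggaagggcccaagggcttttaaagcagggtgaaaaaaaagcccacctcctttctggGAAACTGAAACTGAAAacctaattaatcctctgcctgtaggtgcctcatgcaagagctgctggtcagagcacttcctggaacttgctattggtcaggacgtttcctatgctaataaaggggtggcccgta
IFITM1: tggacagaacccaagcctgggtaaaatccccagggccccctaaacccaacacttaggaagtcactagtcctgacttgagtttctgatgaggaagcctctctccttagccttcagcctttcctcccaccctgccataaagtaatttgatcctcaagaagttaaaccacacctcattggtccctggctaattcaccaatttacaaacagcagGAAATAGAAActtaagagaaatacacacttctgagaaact
LGALS3BP: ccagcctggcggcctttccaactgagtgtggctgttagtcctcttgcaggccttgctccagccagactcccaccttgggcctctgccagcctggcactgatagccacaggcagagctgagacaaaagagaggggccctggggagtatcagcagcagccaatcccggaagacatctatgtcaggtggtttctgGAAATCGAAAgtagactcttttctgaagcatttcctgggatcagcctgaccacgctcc
IFI16: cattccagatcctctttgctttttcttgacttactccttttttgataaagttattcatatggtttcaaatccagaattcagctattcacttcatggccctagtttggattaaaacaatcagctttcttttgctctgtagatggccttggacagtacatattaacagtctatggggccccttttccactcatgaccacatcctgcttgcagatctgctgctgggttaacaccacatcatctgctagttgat
These stretches held 3, 2, 0, 4 and 0 CpG dinucleotides in the order shown. The core of LGALS3BP and the first of the 2 cores of IFI27 contain CG, while the cores of BST2 and IFITM1 do not. Another core of IFITM1, at offset -6 from the transcript start, runs past the end of the stretch and is not in capitals. IFI16 had no core in its window. The transcript starts used lay 4842 bases (IFI27) and 9015 bases (IFI16) inside the outer start of the gene, and those of BST2, IFITM1 and LGALS3BP at it.

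Before any drug, 14 of the 46 genes read 1000 or more on the HCT116 control and 17 on the RKO control, while 13 read under 100 on each. On all 8 arrays of a line, 30 genes reached 100 in HCT116 and 29 in RKO.

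**Figure D1:**
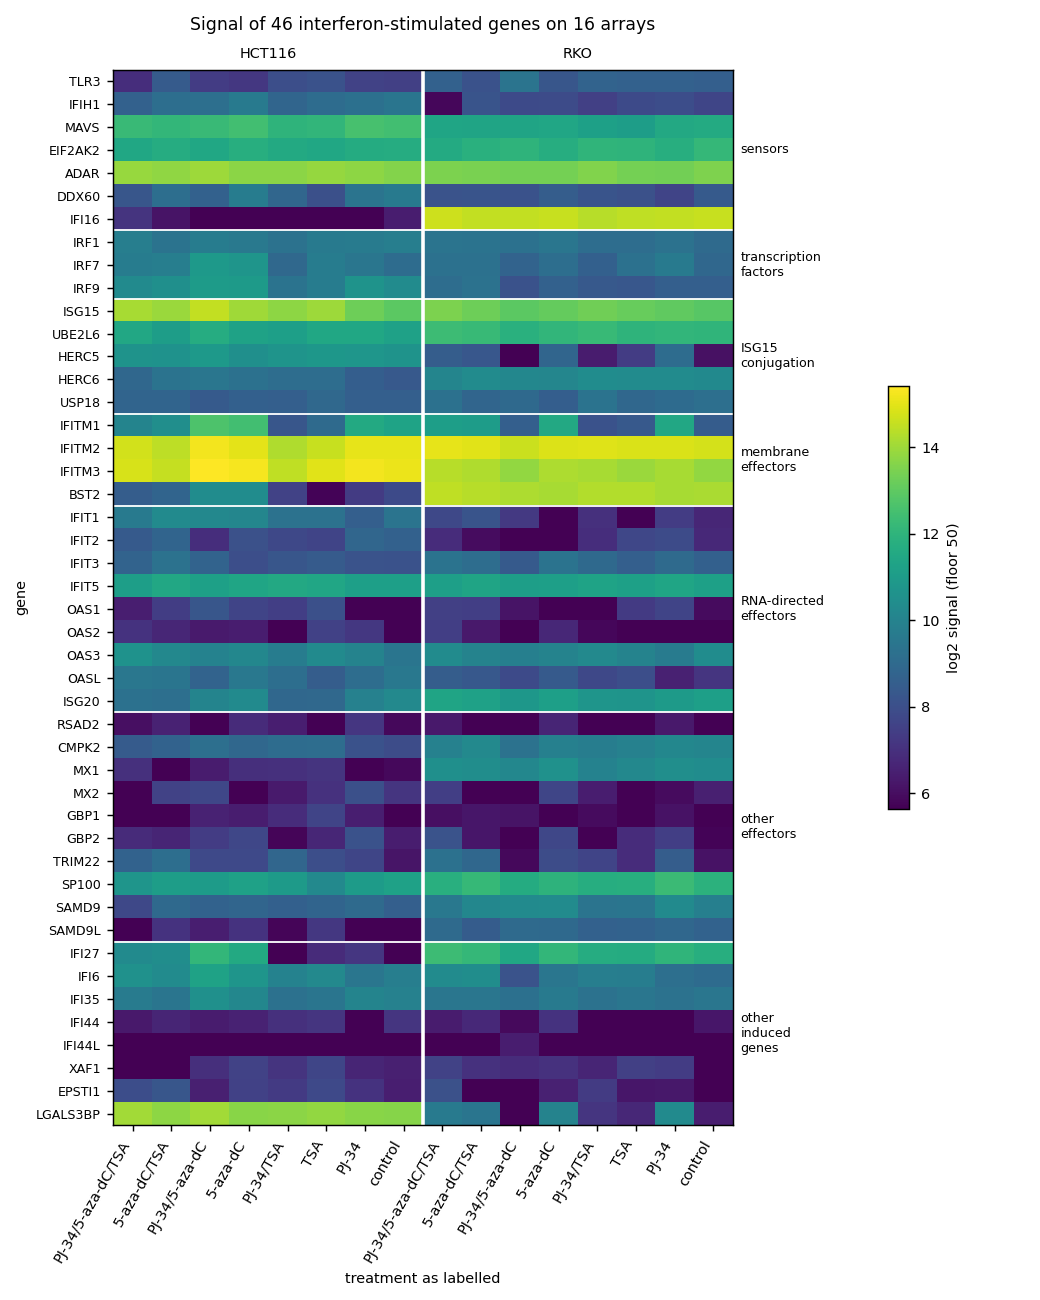
Heatmap of the log2 signal (colour, with signals under 50 set to 50) of the 46 interferon-stimulated genes (rows, grouped by role) on the 16 arrays (columns, 8 of HCT116 left and 8 of RKO right, by the treatment on the label). IFI16 and BST2 are bright in RKO and dim in HCT116, LGALS3BP is the reverse, and in HCT116 the IFI27 row is bright on the 4 arrays with 5-aza-dC.

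In HCT116, 5-aza-dC raised 3 of these genes, IFI27, BST2 and IFITM1, and lowered none. They were 3 of 41 tested, where 0.673% of all 35373 probe sets rose and 0.0707% fell. The other 5 genes of the set (IFI44L, IFI16, RSAD2, SAMD9L and GBP1) did not reach the signal needed for the test. Values of the arrays with 5-aza-dC are given in the order PJ-34/5-aza-dC/TSA, then 5-aza-dC/TSA, then PJ-34/5-aza-dC and 5-aza-dC alone, and those without it in the order PJ-34/TSA, TSA, PJ-34 and control.

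IFI27, a small mitochondrial protein that is among the most strongly interferon-induced transcripts, gave signals of 1263, 1392, 4431 and 3015 on the HCT116 arrays with 5-aza-dC, against 33.98, 115, 145 and 45.5 on those without it. All 4 arrays with the drug were above all 4 without, and the ratio of the arrays that differ in 5-aza-dC alone was 12.1 with TSA and 30.6 with PJ-34. It was at least 25.3 with PJ-34/TSA and at least 60.3 with no other drug, where the array without 5-aza-dC read under 50 and was set to 50. No array without the drug read above 145, and the 2 arrays that also held TSA were the lower ones among those with it (log2 difference 4.78, SE 0.40, adjusted p = 1.86e-05). In bulk RNA, more cells with the transcript and more of it per cell cannot be told apart.

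BST2 (tetherin) holds budding virus particles at the cell surface. Its signals were 371, 445, 1335 and 1328 on the HCT116 arrays with 5-aza-dC, against 190.0, 53.1, 162 and 229.9 on those without it. The groups did not overlap, and the 2 arrays with 5-aza-dC but without TSA stood apart from the rest (log2 difference 2.40, SE 0.38, adjusted p = 0.00631). Without the HCT116 array treated with 5-aza-dC alone the adjusted p of BST2 was above 0.05.

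IFITM1, a membrane protein that blocks fusion of viruses with the cell, gave 1058, 1416, 6600.4 and 5658 on the HCT116 arrays with 5-aza-dC, against 306, 521, 3059.7 and 2537 on those without it. Here the groups overlapped, since the 2 arrays with 5-aza-dC and TSA read below PJ-34 and the control, but each array with 5-aza-dC was above the array that differed from it in 5-aza-dC alone (log2 difference 1.37, SE 0.19, adjusted p = 0.00196). The fit of all 16 arrays together did not call IFITM1. With no filter on low signals the log2 differences of the 3 genes were the same and none passed, with adjusted p-values in limma of 0.199 for IFI27, 0.285 for IFITM1 and 0.344 for BST2.

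**Figure D2:**
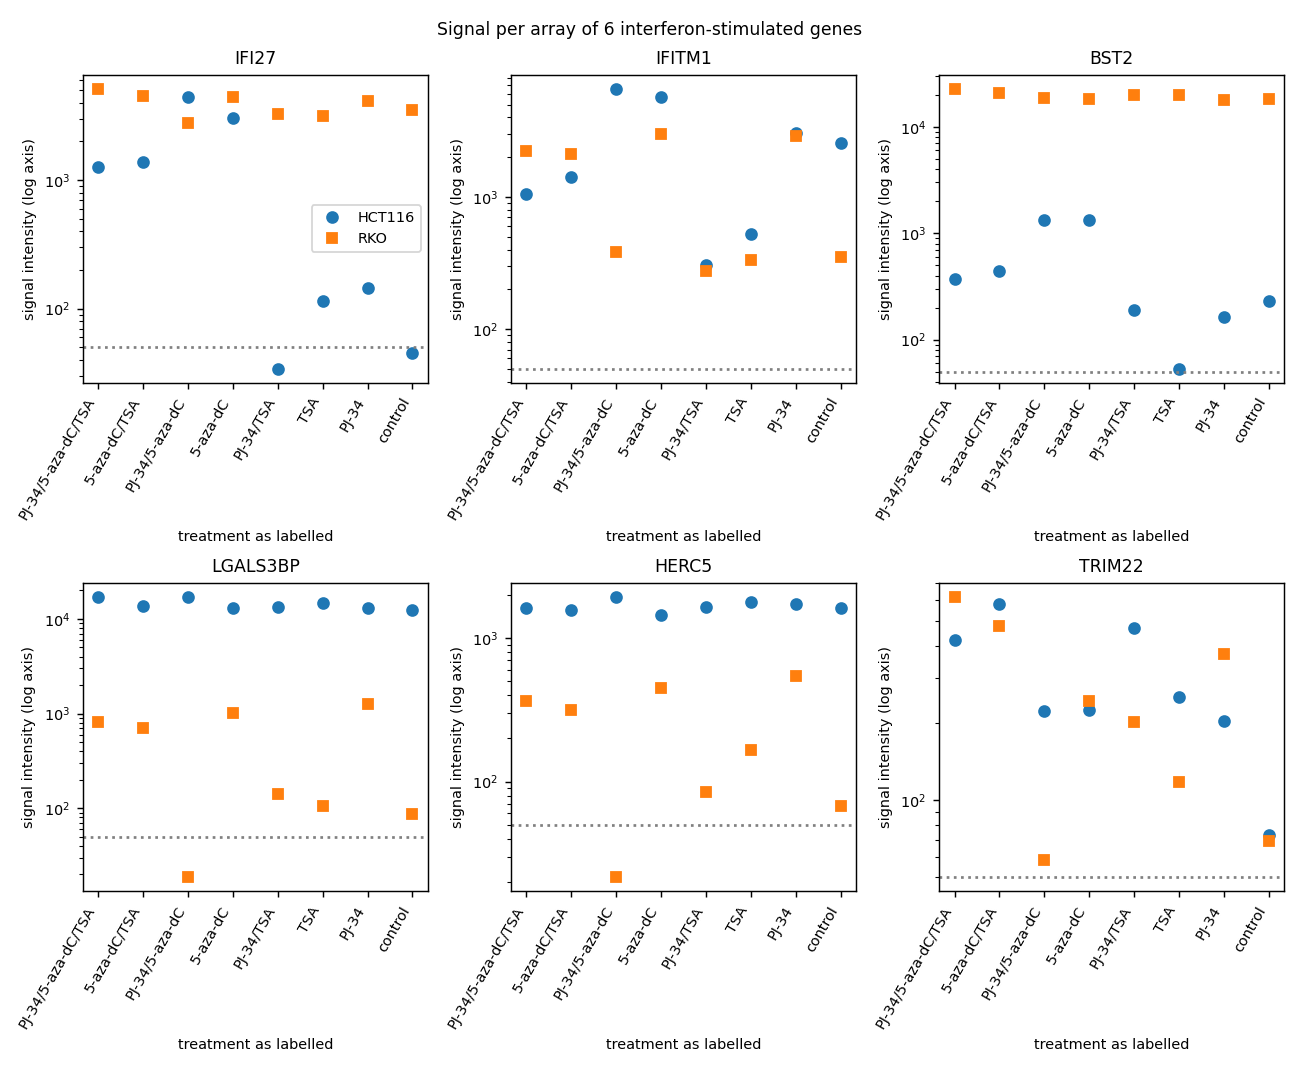
Signal intensity (log axis) of IFI27, IFITM1, BST2, LGALS3BP, HERC5 and TRIM22 on each array, by the treatment on the label, with HCT116 as circles, RKO as squares and a dotted line at 50. IFI27 and BST2 step up on the 4 HCT116 arrays with 5-aza-dC, and LGALS3BP and HERC5 in RKO are lowest on the array labelled PJ-34/5-aza-dC and highest on the one labelled PJ-34.

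The transcription factors and the ISG15 pathway showed smaller values. IRF7, which amplifies the interferon response, read 859, 893, 1895 and 1723 on the arrays with 5-aza-dC, against 491, 858, 715 and 550.4 on those without it, groups that just missed each other (log2 difference 0.98, SE 0.25, adjusted p = 0.119). IRF9, which takes part in binding the ISRE, gave a log2 difference of 0.66 (adjusted p = 0.115) and ISG15 one of 0.65 (adjusted p = 0.147). IRF1, a factor induced by type II interferon, gave 0.00 (adjusted p = 0.996). None of the 4 passed the test.

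Among the other effectors the test passed none, and at an unadjusted p under 0.05 there were 8 genes of the set, all higher with 5-aza-dC, where 10.6% of all probe sets had such a p. Beside the 3 called genes and IRF7, IRF9 and ISG15 these were IFI6, a mitochondrial and endoplasmic reticulum protein (log2 difference 0.86, adjusted p = 0.113), and IFIT1, which binds viral RNA that lacks a methylated cap (log2 difference 0.92, adjusted p = 0.0727). The 4 arrays with 5-aza-dC were all above the 4 without it for IFI27, IFI6, IFIT1, BST2 and IRF7, and all below for none, against 2.52% and 1.69% of all probe sets. The median log2 difference was 0.16 over the 41 genes and -0.01 over all probe sets.

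The remaining families gave values on both sides of 0 that did not pass. The log2 differences with 5-aza-dC were -0.18, 0.47 and -0.02 for IFIT2, IFIT3 and IFIT5. The 2′-5′-oligoadenylate synthetases OAS1, OAS2 and OAS3, which make the messenger that switches on an RNA-cutting enzyme, gave 0.76, 0.12 and 0.36, and their relative OASL gave 0.22. The GTPases MX1 and MX2, which trap viral nucleocapsids, gave 0.10 and -0.48. None of these 9 genes passed.

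None of the sensors tested passed under 5-aza-dC. TLR3, the receptor for double-stranded RNA in endosomes, gave a log2 difference of -0.29 (SE 0.38) in HCT116. IFIH1 (MDA5), which recognises long double-stranded RNA in the cytoplasm, gave 0.01 (SE 0.21), and its adaptor on mitochondria, MAVS, gave 0.00 (SE 0.11). EIF2AK2 (PKR), the kinase that halts translation on double-stranded RNA, gave 0.01 (SE 0.12), ADAR, which edits such RNA, gave 0.11 (SE 0.10), and DDX60, a helicase reported to aid RNA sensing, gave -0.02 (SE 0.30).

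More of the set passed the test under TSA in HCT116, as did more of all probe sets, and most of its genes that passed fell. It lowered 7 of the 41 genes tested (IFITM1, BST2, ISG20, IRF9, IFI35, IFITM2 and IFITM3) and raised 1, TRIM22, where 4.83% of all probe sets fell and 4.16% rose. The arrays with TSA are given in the order PJ-34/5-aza-dC/TSA, then 5-aza-dC/TSA, PJ-34/TSA and TSA, and those without it in the order PJ-34/5-aza-dC, then 5-aza-dC, PJ-34 and control.

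All 3 IFITM genes fell. IFITM1 read 1058, 1416, 306 and 521 on the HCT116 arrays with TSA, against 6600.4, 5658, 3059.7 and 2537 on those without it (log2 difference -2.56, SE 0.19, adjusted p = 2.31e-05). Every array with TSA was below every array without it, so TSA and 5-aza-dC moved this gene in opposite directions in HCT116.

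IFITM2, which acts on viruses in late endosomes, gave 27590.2, 22023, 19461 and 24302 with TSA, against 38741, 32618, 34058 and 33333 without it (log2 difference -0.58, SE 0.11, adjusted p = 0.00621). IFITM3, its close relative, gave 28815, 23772, 22679 and 31609 with TSA, against 43344, 39139, 38558 and 35697 without it (log2 difference -0.56, SE 0.12, adjusted p = 0.0106). Both were bright on every array, and neither overlapped between the groups. The call of IFITM3 was lost without the array with 5-aza-dC alone or the one with PJ-34/TSA. Their probe sets are of a kind that can bind near-identical transcripts, and as IFITM1, IFITM2 and IFITM3 are close copies, the signals of IFITM2 and IFITM3 may each hold some of the other's.

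ISG20, an exonuclease that degrades viral RNA, read 619.8, 593, 478 and 493 on the HCT116 arrays with TSA, against 1058, 1268, 966 and 1195 on those without it. The groups did not overlap (log2 difference -1.04, SE 0.18, adjusted p = 0.00444), and the other tested probe set of the gene fell by 1.91 on the log2 scale with an adjusted p of 1.09e-03 in the same limma fit. With IFITM1, ISG20 was one of the 2 genes whose call under TSA held in every alternative tried.

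BST2 read 371, 445, 190.0 and 53.1 with TSA, against 1335, 1328, 162 and 229.9 without it, which overlapped because the array with PJ-34 alone and the control were below the 2 arrays with 5-aza-dC and TSA (log2 difference -1.33, SE 0.38, adjusted p = 0.0432). Its call was kept on leaving out the array with PJ-34/TSA or the one with PJ-34, and was lost on leaving out any of the other 6. IRF9 read 1261, 1446, 661 and 858 with TSA, against 2062, 1973, 1627 and 1294 without it (log2 difference -0.76, SE 0.17, adjusted p = 0.0136), also with overlap, and its call was lost without PJ-34/TSA, without PJ-34 or without the control. IFI35, an interferon-induced leucine zipper protein, read 843, 697, 628 and 702 with TSA, against 1496, 1143, 1047 and 972 without it (log2 difference -0.69, SE 0.18, adjusted p = 0.0266). Its groups did not overlap, but its call was kept only on leaving out the array with PJ-34/5-aza-dC or the one with TSA, among the 8 arrays left out in turn.

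TRIM22, a RING-domain E3 ligase that restricts retroviral transcription, read 420.2, 580.1, 469.7 and 253 on the HCT116 arrays with TSA, against 222, 225, 203 and 73.0 on those without it. It was the one gene of the set that rose with TSA, with no overlap (log2 difference 1.32, SE 0.36, adjusted p = 0.0359), and the lowest array of all was the control. The call was lost on leaving out 5-aza-dC/TSA, 5-aza-dC, PJ-34/TSA, PJ-34 or the control. With no filter on low signals, IFITM1 and ISG20 passed (adjusted p = 0.0409 and 0.0431 in limma) and the other 6 genes did not. The calls of BST2 and IFI35 were also lost with quantile normalization, and that of TRIM22 in the fit of all 16 arrays together.

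Over the 41 genes the median log2 difference with TSA was -0.09, against -0.07 over all probe sets. An unadjusted p under 0.05 was found for 11 genes, 9 of them lower, where 24.0% of all probe sets had one. The 4 arrays with TSA were all below the 4 without it for IFI35, IFITM1, IFITM2, IFITM3, ISG20 and IFIH1 and all above for TRIM22, against 6.95% and 6.26% of all probe sets. The OAS family stayed within log2 differences of -0.09 (OASL) and 0.53 (OAS1), and IFIT1, IFIT2, IFIT3 and IFIT5 gave 0.07, 0.03, 0.46 and 0.17, none past the test.

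**Figure D3:**
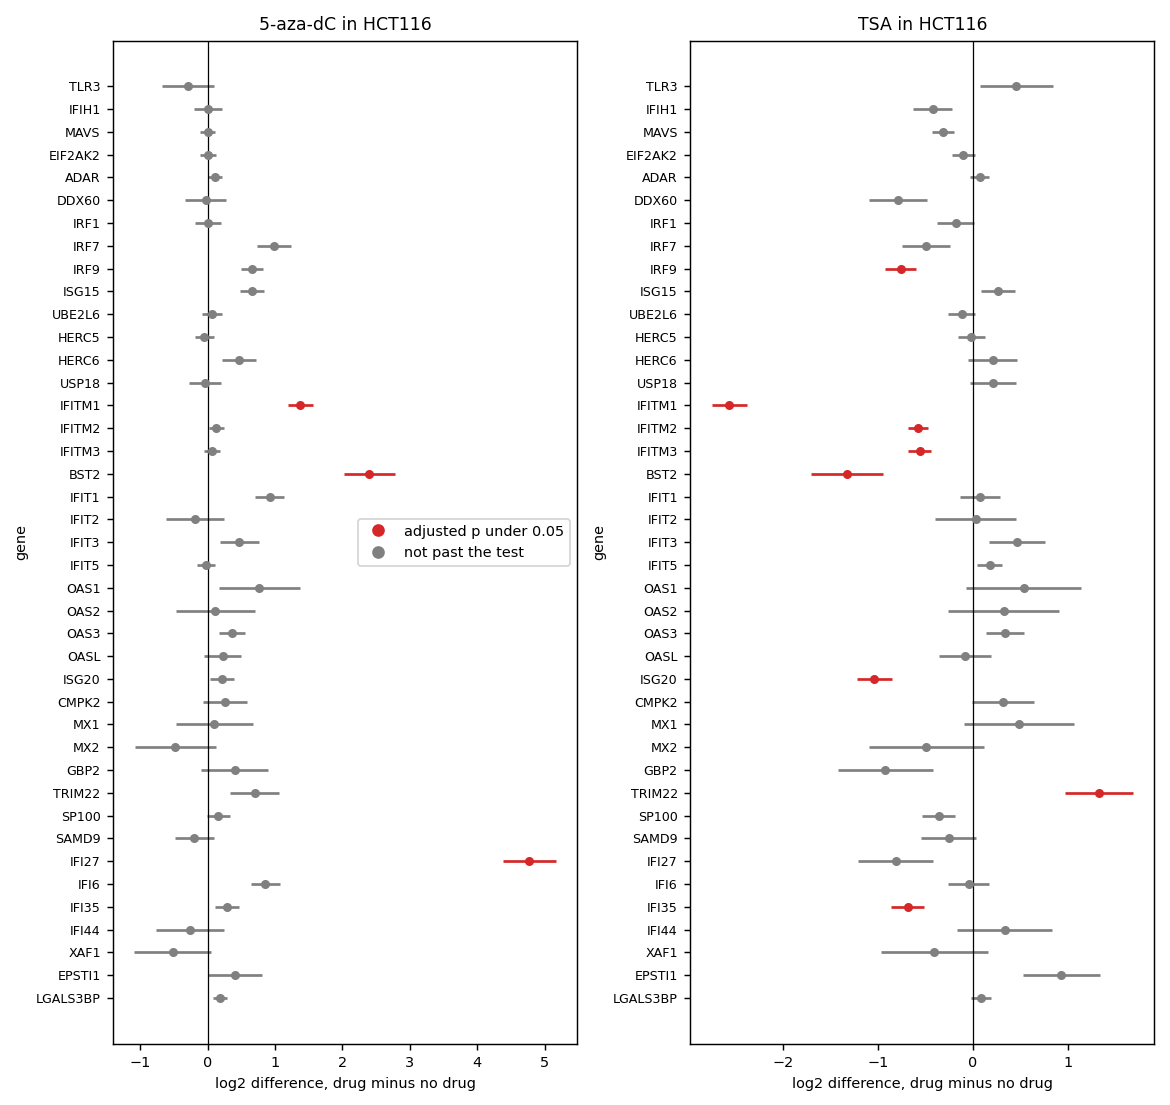
Log2 difference (points) and its SE (bars) of the 41 interferon-stimulated genes tested in HCT116, with 5-aza-dC left and TSA right, from the fit of 8 arrays; red points passed an adjusted p of 0.05. IFI27, BST2 and IFITM1 lie right of 0 under 5-aza-dC, and BST2 and IFITM1 lie left of 0 under TSA.

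No gene of the set passed the test for PJ-34 in either line. In limma, 0 of 41 genes tested in HCT116 and 0 of 39 in RKO passed, and 0 had an unadjusted p under 0.05 in each line, where 0.0% of all probe sets passed in either direction and 3.74% (HCT116) and 2.64% (RKO) had such a p. The log2 differences ran between -0.56 (IFI44) and 0.47 (TRIM22) in HCT116 and between -0.62 (IFIH1) and 0.81 (IFIT1) in RKO. IFI35 lay lower on all 4 RKO arrays labelled with PJ-34 than on the other 4 (log2 difference -0.19, SE 0.17), as 0.694% of all probe sets did. Without both arrays whose labels are in doubt, PJ-34 in RKO again gave 0 of 37 genes, with 1 at an unadjusted p under 0.05 where 5.63% of all probe sets had one.

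In RKO, 5-aza-dC passed the test for 0 of 39 genes with all 8 arrays under their labels, where 0.0% of all 33862 probe sets passed and 5.19% had an unadjusted p under 0.05. Such a p was found for 2 genes, IFIT2 (log2 difference -1.30, adjusted p = 0.882) and OASL (log2 difference 0.89, adjusted p = 0.882). The other tested probe set of OASL had the opposite sign in the same limma fit (log2 difference -0.51, adjusted p = 0.885). The arrays labelled PJ-34/5-aza-dC and PJ-34 lay apart from the others of their labelled group in several genes of the set.

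LGALS3BP, a secreted glycoprotein that binds galectins, read 809, 700.2 and 1025 on the RKO arrays labelled PJ-34/5-aza-dC/TSA, then 5-aza-dC/TSA and 5-aza-dC, against 141, 105 and 87.0 on those labelled PJ-34/TSA, TSA and control. The array labelled PJ-34/5-aza-dC read 18.7 and the one labelled PJ-34 read 1263. These 2 arrays were the lowest and the highest of the 8.

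HERC5, the main ligase that joins ISG15 to proteins, read 367, 316 and 449 on the first 3 of those arrays, against 84.4, 165 and 67.8 on the second 3. It read 21.6 on the array labelled PJ-34/5-aza-dC and 546 on that labelled PJ-34, again the lowest and the highest. IFITM1 followed the same order of groups, with 2208, 2121 and 2979.6 on the first 3, against 274, 335 and 354 on the second 3, and with 385 on the array labelled PJ-34/5-aza-dC and 2912 on that labelled PJ-34.

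TRIM22 read 619, 475 and 243 on the 3 undoubted arrays with 5-aza-dC, against 201, 117 and 69.1 on the 3 undoubted arrays without it, and 58.5 and 371 on the arrays labelled PJ-34/5-aza-dC and PJ-34. For these 4 genes the array labelled PJ-34 lay among or above the arrays with 5-aza-dC, as it did in the count of cancer-testis genes. That was not so for IFI27 and IFITM3, given below.

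Without both arrays, 6 of 37 genes rose with 5-aza-dC in RKO and 0 fell, where 1.11% of all 31057 probe sets rose and 0.853% fell. An unadjusted p under 0.05 was found for 15 of the 37, against 15.3% of all probe sets. The 6 were LGALS3BP (log2 difference 2.94, SE 0.33, adjusted p = 0.000369), IFITM1 (log2 difference 2.92, SE 0.17, adjusted p = 8.98e-07), HERC5 (log2 difference 1.93, SE 0.45, adjusted p = 0.0447), TRIM22 (log2 difference 1.82, SE 0.37, adjusted p = 0.0233), IFI27 (log2 difference 0.49, SE 0.10, adjusted p = 0.0209) and IFITM3 (log2 difference 0.32, SE 0.07, adjusted p = 0.035). For each of these except IFI27 and IFITM3 the difference was more than 1.5 on the log2 scale. IFI27 read 5148, 4512 and 4402 on the 3 arrays with 5-aza-dC, against 3287, 3169.6 and 3513 on the 3 without it, so the gene, which read 45.5 on the HCT116 control, was bright on every RKO array. IFITM3 read 21048, 19454 and 19015 with 5-aza-dC, against 17723, 15582 and 14599.6 without it. On the RKO arrays labelled PJ-34/5-aza-dC and PJ-34, IFI27 read 2784 and 4138, and IFITM3 read 14653 and 17866. For both genes the array labelled PJ-34 lay between the arrays with 5-aza-dC and those without it. The fit of 6 arrays leaves 2 residual degrees of freedom before the variances are pooled, and no gene of the set passed in the fit of all 8.

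**Figure D4:**
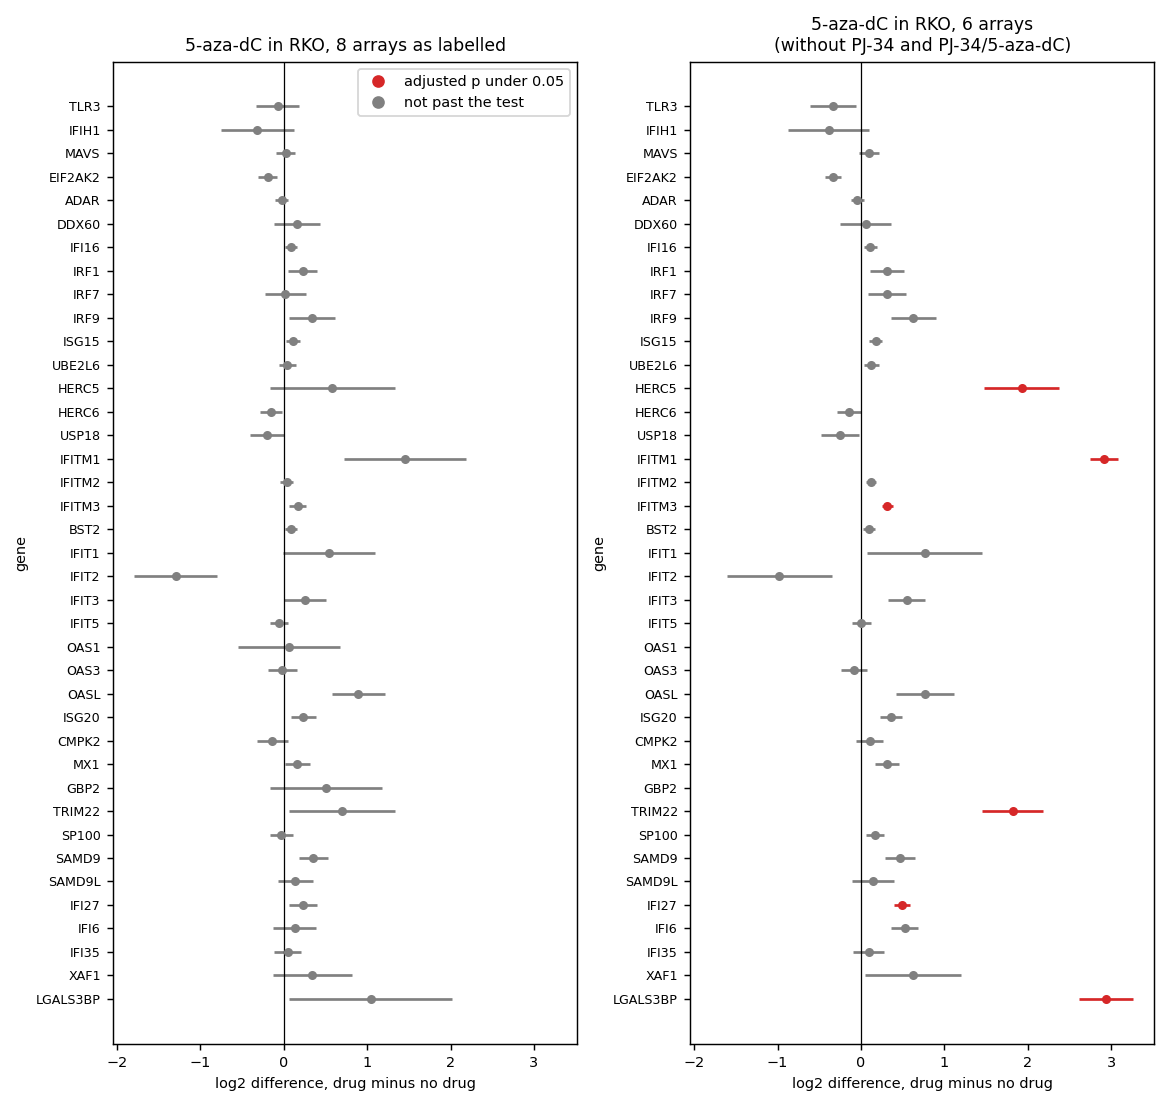
Log2 difference with 5-aza-dC (points) and its SE (bars) of the 39 interferon-stimulated genes tested in RKO, from all 8 arrays as labelled (left) and from 6 arrays without those labelled PJ-34/5-aza-dC and PJ-34 (right, where GBP2 and OAS1 were not tested and have no point); red points passed an adjusted p of 0.05. No gene passed on the left and 6 passed on the right.

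TSA in RKO passed the test for 0 of 39 genes, where 0.00295% of all probe sets rose and as many fell, and 12.3% had an unadjusted p under 0.05. Of the set, 4 genes had such a p. IFI6 read 1292, 1369, 912 and 884 on the RKO arrays with TSA, against 285, 716, 587 and 529 on those without it (log2 difference 1.12, SE 0.26, adjusted p = 0.16), with no overlap between the groups. ISG15 and BST2 also lay higher on all 4 arrays with TSA, with log2 differences of 0.29 (adjusted p = 0.213) and 0.19 (adjusted p = 0.285), against 2.95% of all probe sets that did so. SAMD9, a cytoplasmic restriction factor of poxviruses, gave -0.57 (adjusted p = 0.23). Without both arrays the count stayed at 0 of 37, with 0.0129% and 0.00322% of all probe sets higher and lower and 1 gene at an unadjusted p under 0.05, against 8.55%.

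The effect of 5-aza-dC differed between the lines for IFI27 and BST2. The difference of the log2 effects, HCT116 minus RKO, was 4.55 (SE 0.47, adjusted p = 0.00378) for IFI27 and 2.32 (SE 0.35, adjusted p = 0.029) for BST2, 2 of 43 genes tested, where 0.0427% of all 42119 probe sets had a larger effect in HCT116 and 0.0% a smaller one. An unadjusted p under 0.05 was found for 5 of the 43, against 7.44%. BST2 read 22882, 20913, 18727 and 18094 on the RKO arrays labelled with 5-aza-dC, against 19944, 19719.7, 17886 and 18126 on the others. It was bright on every RKO array. Without both doubted arrays, IFI27 (difference of effects 4.12, adjusted p = 1.54e-05) and BST2 (2.31, adjusted p = 0.00912) were again larger in HCT116, where 0.0995% of all probe sets were, and LGALS3BP (-2.84, adjusted p = 2.22e-06), IFITM1 (-1.53, adjusted p = 0.00997) and HERC5 (-2.15, adjusted p = 0.0137) were smaller, where 0.131% were. Then 8 genes had an unadjusted p under 0.05, against 8.31%. With no filter on low signals neither IFI27 nor BST2 passed with all 16 arrays (adjusted p = 0.575 for both in limma), and without the HCT116 array with 5-aza-dC alone IFI27 did not. LGALS3BP and HERC5 were bright on every HCT116 array (12523 to 17127 and 1458 to 1941). For IFI27, BST2, LGALS3BP and HERC5, the line with the larger rise was the line with the lower signal on its control. The control is itself among the arrays without 5-aza-dC that enter each effect, and its part in these differences was not tested.

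The effect of TSA differed between the lines for ISG20 and IFITM2. The difference of the log2 effects, HCT116 minus RKO, was -1.02 (SE 0.20, adjusted p = 0.0492) for ISG20 and -0.75 (SE 0.15, adjusted p = 0.0492) for IFITM2. No gene of the set lay on the other side, and 0.178% and 0.104% of all probe sets were smaller and larger in HCT116. In RKO, ISG20 read 2572, 2388, 1717 and 1672 with TSA, against 1792, 2278, 1973 and 2303 without it, and IFITM2 read 33636, 32374, 31555 and 29709 with TSA, against 25260.1, 30656, 29558 and 27793 without it. Both adjusted p-values were close to the threshold. Without both doubted arrays neither passed, and IFITM1 did (difference of effects -1.86, SE 0.31, adjusted p = 0.0183), where 0.211% of all probe sets were smaller in HCT116 and 0.0801% larger.

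No gene of the set passed the test for a departure from the sum of 2 drug effects. The term for a pair of drugs was common to both lines, so a departure in HCT116 or RKO alone was not tested. For 5-aza-dC with TSA, 0 of 43 passed in limma and 5 had an unadjusted p under 0.05, where 0.0% and 4.48% of all probe sets did. For PJ-34 with 5-aza-dC, 0 of 43 passed and 3 had such a p, where 0.0% and 6.82% did. These counts hold the 2 doubted RKO arrays. Without them the counts were again 0 for both, with 5 and 3 genes at an unadjusted p under 0.05, against 6.92% and 9.91%.

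More of the genes passed between the lines than under any drug, as did more of all probe sets. Of 43 genes tested, 17 were higher in HCT116 and 13 were higher in RKO, where 21.1% and 22.8% of all probe sets were. At an unadjusted p under 0.05 there were 33, against 49.5%. Without both doubted RKO arrays the counts were 15 and 13, against 17.6% and 17.9%. EIF2AK2, EPSTI1, IFI35 and IRF1 then did not pass, while IFITM1, higher in HCT116 (log2 difference 0.72, adjusted p = 0.00131), and IFIT3, lower in HCT116 (log2 difference -0.82, adjusted p = 0.0235), did. The lowest, median and highest signals of the 8 arrays of each line are given for the 6 genes with the greatest differences. Differences of genes with arrays under 50 are understated, since such signals were set to 50.

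IFI16, which binds foreign DNA in the nucleus, read 7.51, 21.9 and 138 on the HCT116 arrays, against 21054, 23370.3 and 25771 on the RKO arrays (log2 difference -8.54, SE 0.14, adjusted p = 1.18e-15). BST2 read 53.1, 300.5 and 1335 in HCT116, against 17886, 19223 and 22882 in RKO (log2 difference -5.93, SE 0.18, adjusted p = 3.87e-13). Neither gene overlapped between the lines, and no HCT116 array treated with 5-aza-dC brought either to the RKO signal.

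MX1 read 7.99, 105 and 139.8 in HCT116, against 1002, 1347 and 1513 in RKO (log2 difference -3.88, SE 0.26, adjusted p = 5.87e-09), without overlap. IFI27 read 33.98, 704 and 4431 in HCT116, against 2784, 3826 and 5148 in RKO (log2 difference -3.17, SE 0.24, adjusted p = 2.12e-08). Its ranges overlapped through the HCT116 arrays with 5-aza-dC but without TSA.

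On the HCT116 side, LGALS3BP read 12523, 13516 and 17127 in HCT116, against 18.7, 421 and 1263 in RKO (log2 difference 5.62, SE 0.53, adjusted p = 3.06e-07). HERC5 read 1458, 1634 and 1941 in HCT116, against 21.6, 240.4 and 546 in RKO (log2 difference 3.18, SE 0.43, adjusted p = 1.56e-05). Neither overlapped, and each kept its call in every alternative. Without both doubted RKO arrays the log2 differences were -8.35 for IFI16, -5.68 for BST2, -3.65 for MX1, -3.69 for IFI27, 5.45 for LGALS3BP and 3.18 for HERC5, and all 6 passed.

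**Figure D5:**
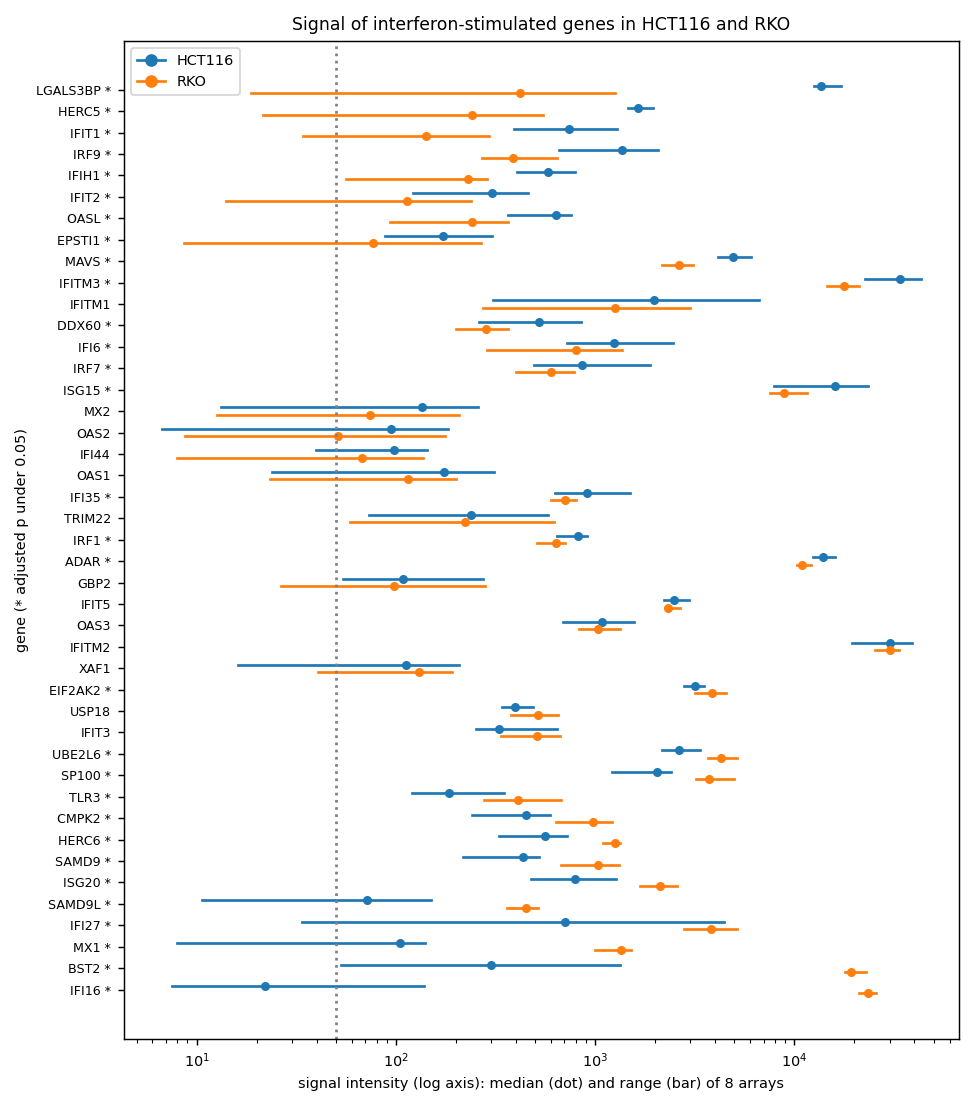
Signal intensity (log axis) of the 43 interferon-stimulated genes tested between the lines, with the median (dot) and range (bar) of the 8 HCT116 arrays (blue) and the 8 RKO arrays (orange), sorted by the log2 difference of HCT116 minus RKO, and with asterisks for an adjusted p under 0.05. LGALS3BP at the top and IFI16 at the bottom mark both ends, and 30 of the 43 genes carry an asterisk.

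By role, the line difference did not run one way. Among sensors and adaptors, IFIH1 (1.58), MAVS (0.91), DDX60 (0.82) and ADAR (0.36) were higher in HCT116, and TLR3 (-0.998), EIF2AK2 (-0.29) and IFI16 were lower. The factors IRF9 (1.72), IRF7 (0.69) and IRF1 (0.37) were higher in HCT116. All these values are log2 differences of HCT116 minus RKO that passed the test with all 16 arrays. EIF2AK2 (adjusted p = 0.0559) and IRF1 (adjusted p = 0.149) did not pass without both doubted arrays.

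The ISG15 pathway was split, with ISG15 (0.68) and HERC5 higher in HCT116 and the E2 enzyme UBE2L6 (-0.75) and the HERC5 relative HERC6 (-1.24) lower. USP18, which removes ISG15 from proteins, gave -0.35 (adjusted p = 0.0983). The RNA-binding IFIT1 (2.67) and IFIT2 (1.46) were higher in HCT116, as were IFITM3 (0.89) and OASL (1.38), while IFIT3, IFIT5, IFITM1, IFITM2, OAS1, OAS2 and OAS3 did not pass with all 16 arrays. The restriction factors SAMD9 (-1.25) and SAMD9L (-2.49), the nuclear body protein SP100 (-0.98), ISG20 (-1.41) and CMPK2, a mitochondrial nucleotide kinase (-1.23), were lower in HCT116 and passed the test.

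All 8 HCT116 arrays were above all 8 RKO arrays for 8 genes and below them for 10, against 9.85% of all probe sets each way. Of the 30 line calls, 23 held in all 21 alternatives, and none reversed. The 7 lost in some were EIF2AK2, EPSTI1, HERC6, IFI35, IFI6, IRF1 and IRF7. Of the other probe sets of the called genes, 22 in 14 genes were tested, 21 had the same sign, 16 of them passed, and the 1 with the opposite sign, of HERC6, did not. A probe set of IFIT5 other than the one used passed alone, with a log2 difference of -0.52 (adjusted p = 3.09e-03).

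Genes of the pathway outside the set were read from 2 further lists. Among receptors, kinases, sensors and interferons, 0 of 25 tested passed under 5-aza-dC in HCT116, and under TSA 1 did, SOCS3, a feedback inhibitor of JAK kinases (log2 difference -0.78, SE 0.21, adjusted p = 0.0307), whose call was lost on leaving out any of 6 of the 8 arrays. IFNB1, which encodes interferon beta, read 8.01 to 81.2 in HCT116 and 7.58 to 87.2 in RKO. IFNA1 read 5.15 to 70.7 and 4.67 to 128 in the same order of lines, and IFNK 2.41 to 32.8 and 2.71 to 65.3. Other interferon genes read higher, with IFNL1 at 14.7 to 308 and 118 to 220. IFNL2 read 50.7 to 204 and 24.5 to 208, and IFNE 51.1 to 237 and 35.8 to 174. IFNL1, IFNL2 and IFNE did not pass between the lines. Between the lines 6 of 26 were higher in HCT116 and 9 were lower, where 21.1% and 22.8% of all probe sets were. Without both doubted RKO arrays the counts were 5 and 10, against 17.6% and 17.9%, as TRAF3 did not pass (adjusted p = 0.191) and TICAM1, a Toll-like receptor adaptor, was lower (log2 difference -0.63, adjusted p = 0.0449). The DNA sensor CGAS, at 6.71 to 145 in HCT116 and 986 to 1732 in RKO, gave -4.40 (adjusted p = 1.83e-09), and its adaptor STING1, at 680.5 to 1236 in HCT116 and 14.4 to 177 in RKO, gave 3.71 (adjusted p = 3.10e-08). The receptor chains IFNAR1 (-1.51), IFNAR2 (-0.84), IL10RB (-0.75) and IFNGR2 (-0.31) were lower in HCT116, and IFNGR1 (0.40) was higher. The RNA sensor RIGI (1.05), STAT3 (0.65), SOCS3 (0.61) and the adaptor TRAF3 (0.29) were higher in HCT116, while the factors IRF2 (-0.88) and IRF5 (-0.46) and the kinases TBK1 (-0.49) and IKBKE (-0.61), which activate IRF3, were lower.

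Among further interferon-stimulated genes, PARP10, a mono-ADP-ribosyltransferase, rose with 5-aza-dC in HCT116 (log2 difference 2.09, SE 0.42, adjusted p = 0.0335), 1 of 24 tested. Its call was lost on leaving out any of 7 of the 8 arrays (adjusted p up to 0.174 in limma). Under TSA in HCT116, TRIM5, which binds retroviral capsids, rose (log2 difference 0.70, adjusted p = 0.0293) and TRIM38 fell (log2 difference -0.62, adjusted p = 0.047), calls lost on leaving out any of 5 and 6 arrays. Between the lines 5 of 26 were higher in HCT116 and 13 were lower, where 21.1% and 22.8% of all probe sets were. Without both doubted RKO arrays the counts were 4 and 13, against 17.6% and 17.9%, as ZC3HAV1 did not pass (adjusted p = 0.188). The lowest were CD274 (PD-L1), the immune checkpoint ligand, at 156 to 291 in HCT116 and 17883 to 22261 in RKO (log2 difference -6.61, adjusted p = 1.48e-15), and the immunoproteasome subunit PSMB8, at 9.06 to 214 in HCT116 and 2253 to 3522 in RKO (log2 difference -5.52, adjusted p = 3.44e-11). The others lower in HCT116 were SLC15A3 (-4.22), PARP10 (-2.07), NMI (-1.43), TRIM14 (-1.14), PSMB9 (-1.03), PNPT1 (-0.75), PARP14 (-0.71), TAP1 (-0.67), PARP12 (-0.62), NT5C3A (-0.35) and SHISA5 (-0.33). Those higher were ZC3HAV1 (0.23), PLSCR1 (0.40), TRIM5 (0.78), TRIM25 (1.07) and LAMP3 (1.18).

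Set against the single control array of their line, genes of the set at least 2-fold higher numbered 7 of 40 with all 3 drugs, 7 of 40 with 5-aza-dC/TSA, 10 of 38 with PJ-34/5-aza-dC, 13 of 42 with 5-aza-dC, 5 of 39 with PJ-34/TSA, 11 of 43 with TSA and 5 of 39 with PJ-34 in HCT116, where 8.11% to 13.5% of all probe sets were. At least 2-fold lower were 3, 1, 1, 1, 2, 6 and 1 in the same order, where 9.29% to 17.3% of all probe sets were. In RKO the higher ones numbered 12 of 42, 9 of 39, 1 of 34, 10 of 42, 2 of 36, 4 of 39 and 8 of 39 in the same order. The shares of all probe sets were 18.9%, 11.9%, 9.50%, 14.5%, 9.28%, 10.3% and 12.4%. The lower ones numbered 1, 0, 1, 2, 0, 1 and 0, where 8.29%, 8.97%, 8.58%, 6.53%, 9.90%, 8.55% and 7.94% of all probe sets were. The third and the last RKO counts are of the 2 doubted arrays. Each count compares 2 arrays, and no test was made of it.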

How the data were processed

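The 47 genes, the pathway lists and the alternatives were chosen with earlier results of these data known. Total RNA of 16 conditions was hybridized to 1 array each, and arrays were grouped by their deposited labels. The authors deposited 1 linear signal intensity per probe set, from GCOS software scaled alike on each array, with no log and no detection calls. The GCOS version is not given in the sources used here. Trimmed means were 994 to 996. Of 54675 probe sets, 62 controls were left out. Symbols came from the platform annotation, and 41037 of 41091 single-symbol probe sets matched a human gene table. Probe sets with several symbols named no gene. Signals were floored at 50 and log2 taken. Probe sets reaching 100 on 4 arrays entered limma (version 3.58.1, R 4.3.3), with eBayes trend and Benjamini-Hochberg adjustment at 0.05 in 11 comparisons. Each line was fitted with 1 term per drug (8 arrays, 35373 probe sets in HCT116 and 33862 in RKO). Both lines together took terms for line, drug, line by drug and drug by drug (42119 probe sets). The number of arrays limits the precision, and p-values rest on the residual spread between conditions, without replicate cultures. Alternatives were a floor of 20, no filter, quantile normalization, the mean of a gene's probe sets, 1 fit of 16 arrays, leaving out each array, and leaving out both doubted RKO arrays. Signals on every array of a line were given for genes past the test under a drug in that line. They were also given for IRF7 in HCT116 and IFI6 in RKO, which were chosen after their values were seen. For the 6 largest line differences the lowest, median and highest of 8 arrays were given. Scripts were tested on simulated data.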

Additional observations from a re-analysis of the deposited data

Results flagged for a closer look

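The effect of a drug differed between the lines in 4 results, by limma's test of the difference itself over all 16 arrays. For IFI27 under 5-aza-dC the log2 effect was 4.78 in HCT116 and 0.23 in RKO, a difference of 4.55 (adjusted p = 3.78e-03). For BST2 under 5-aza-dC it was 2.40 in HCT116 and 0.09 in RKO, a difference of 2.32 (adjusted p = 0.0290). For IFITM2 under TSA it was -0.58 in HCT116 and 0.17 in RKO, a difference of -0.75 (adjusted p = 0.0492). For ISG20 under TSA it was -1.04 in HCT116 and -0.02 in RKO, a difference of -1.02 (adjusted p = 0.0492). The RKO values include the 2 arrays labelled PJ-34/5-aza-dC and PJ-34. Without them the differences of IFI27 and BST2 were 4.12 and 2.31 and passed, while those of IFITM2 and ISG20 did not pass. Leaving out single arrays, the difference of IFI27 was lost in 1 of 16 fits (without the HCT116 array with 5-aza-dC alone), that of BST2 in 11, that of IFITM2 in 13 and that of ISG20 in 14. The part that the signal on the control arrays has in these differences was not tested.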

How the results depend on the processing

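No paired analysis was possible because each condition is 1 array and all labels carry replicate number 1, so the number pairs no arrays. Arrays that differ in 1 drug alone are matched by the terms of the fit. Of 15 gene-level results under a drug or for a line-by-drug difference, 2 kept their call in every alternative (IFITM1 and ISG20 under TSA in HCT116), as did the 6 greatest line differences, and none of these reversed. Without the filter on low signals, the genes called were 0 under 5-aza-dC in HCT116, 2 under TSA in HCT116, and 0 for the differences of the 5-aza-dC and TSA effects between the lines. Quantile normalization left 1 call for each of those 2 differences, as did the mean of a gene's probe sets, and a floor of 20 left 0 for the TSA difference. Without both RKO arrays labelled PJ-34/5-aza-dC and PJ-34, 6 genes were called under 5-aza-dC in RKO, 5 for the 5-aza-dC difference and 1 for the TSA difference. Leaving out 1 array at a time gave 2 to 8 calls under 5-aza-dC in HCT116 (8 without the TSA array, where the calls over all probe sets numbered 799 higher and 807 lower against 238 and 25 with it, and 2 without the 5-aza-dC array, with 91 and 4), 4 to 10 under TSA in HCT116, 0 to 1 under 5-aza-dC in RKO (IFITM1, without the array labelled PJ-34) and 0 to 1 under TSA in RKO (IFI6, without the same array). It gave 27 to 31 between the lines, 0 to 3 for the 5-aza-dC difference and 0 to 4 for the TSA difference. The cause was not tested. Signals under 50 have no order, so changes of the dimmest genes are understated.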
